A study of Drosophila melanogaster with 16 samples.

Results

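The trunk gap genes described here are kni, knrl, hb, Kr, gt, tll and hkb. They are 7 of 13922 protein-coding genes on the 6 compared chromosome arms of Drosophila melanogaster (2L, 2R, 3L, 3R, 4 and X). They were taken by name, with earlier results of these data known, and placed by a RefSeq gene table of the dm6 assembly. For each gene, every chromatin loop with an anchor in the gene or within 20 kb of it was taken, together with the nearest domain boundary on each side. This gave 3 of 313 loops and 12 of 1930 boundaries. The contact maps came from whole embryos of nuclear cycle 14, pooled from several collections, of the control line yw, which is named for the marker genes yellow and white and whose genotype is otherwise given as WT. For both yw samples the collection is given as 45 min, with an incubation of 2 h at 25 C. The method was Micro-C, which digests fixed chromatin with micrococcal nuclease to single nucleosomes and ligates those that lie close together, so that joined fragments report contacts. The series has 2 yw samples and 14 samples of edited lines, which are described as deletions of architectural elements. The edited lines were not analysed here.

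Each loop and each boundary has a single value for the yw line, with no value per sample, so no replicate error can be given and no difference below has a test. Read depth is unknown. A loop or boundary that is not listed was not called at this depth, which does not show that the contact is absent. Whole embryos were used, so a contact that is strong in few nuclei and one that is weak in all nuclei cannot be told apart. The files hold no expression values, so the labelled stage was not checked against marker genes.

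Gap genes are the first zygotic genes to divide the anterior-posterior axis of the fly embryo. Maternal gradients, such as that of Bicoid, switch them on in broad bands, their protein products repress each other's transcription, and together they set the stripes of the pair-rule genes. hb and Kr encode zinc-finger proteins of the anterior and central embryo, gt a basic leucine zipper protein with an anterior and a posterior band, and kni a member of the nuclear receptor superfamily that acts in the prospective abdomen. knrl is a neighbouring paralog of kni with an overlapping pattern. tll, an orphan nuclear receptor gene, and hkb, a zinc-finger gene of the Sp/KLF type, act at the termini downstream of Torso signalling and are often called terminal gap genes. Several gap genes are known to be driven by more than 1 enhancer, some close to the promoter and some farther away.

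The 7 genes split into 4 with a loop and 3 without. kni, knrl, hb and Kr each had a loop anchor within 1 kb of the gene, at distances of 142 to 623 bp. gt, hkb and tll had none within 20 kb. Their nearest anchors lay 90.3 kb from gt, 107 kb from hkb and 726 kb from tll. Of all protein-coding genes, 13.8% had an anchor in the gene or within 20 kb, and 3.06% within 1 kb. The members were chosen with earlier results of these data known, so these shares are a background and give no test. The median distance to the nearest anchor was 0.623 kb over the 7 genes, against 129.5 kb over all protein-coding genes, whose quartiles were 47.5 and 276 kb. The distances of the 7 genes fell into 2 separate groups, of 4 and of 3, so their median is not a typical distance. kni and knrl lie at the 2 ends of 1 loop, so that loop enters the median by both genes and the 4 genes had 3 loops. For windows of 5, 10 and 50 kb, the shares of all genes were 5.39%, 8.32% and 25.9%. The count of 4 was the same for each of these windows, since each of the 4 genes had an anchor within 1 kb and the nearest anchor of any other member lay 90.3 kb away. The farthest anchor inside 20 kb lay 11.4 kb from its gene, Kr. It fell to 2 genes when only loops of at least the median value were used, and the share of all protein-coding genes was then 5.65%.

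**Figure D1:**
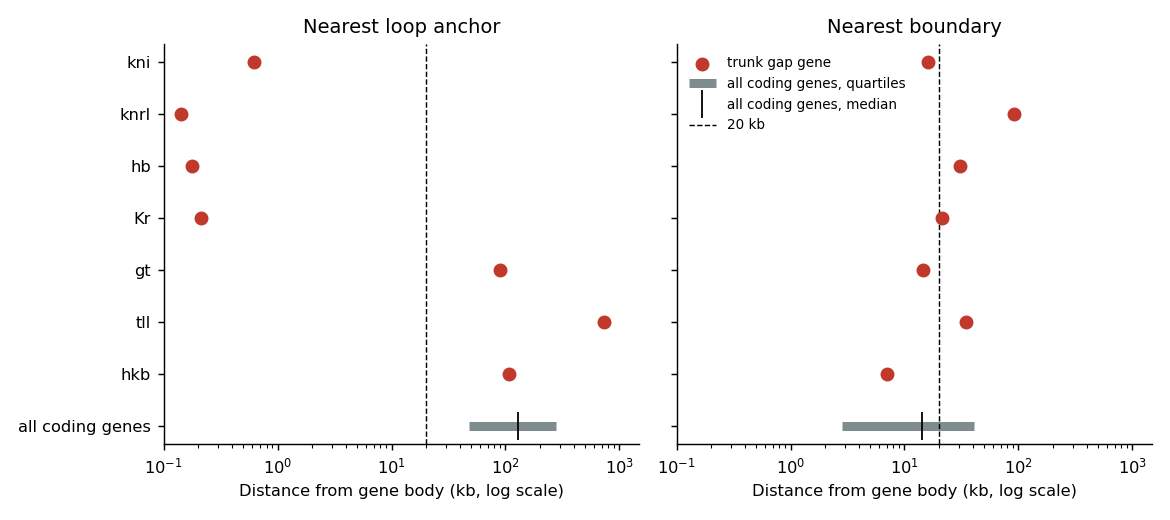
Distance in kb (log scale) from each trunk gap gene to the nearest loop anchor (left) and to the nearest boundary (right), with the quartiles (bar) and median (tick) of all protein-coding genes below. kni, knrl, hb and Kr lie under 1 kb from an anchor and gt, tll and hkb at 90.3 kb or more, while none of the 7 is closer than 7.02 kb to a boundary.

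kni and knrl shared a loop, and it was the only loop with an anchor within 200 kb of either gene. kni lies at 20692330 to 20695378 and knrl at 20597141 to 20620659 on 3L. The left anchor, at 20620801 to 20621200, lay 142 bp beyond the right end of knrl. The right anchor, at 20696001 to 20696400, lay 623 bp beyond the right end of kni. The gene table gives no strand, so it does not say whether these ends are starts of transcription. Both anchors were intergenic bins of 400 bp. Between them lay kni itself, the protein-coding gene CG13251 and 6 long non-coding RNA genes, but not knrl.

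The knrl and kni loop ranked high in the map on the loop caller's scores. It spanned 75.2 kb, longer than 85.6% of the 313 loops. Its deposited loop value was 71.4, rank 16 of 313, against a median of 7.75 over all loops. The score headed APScoreAvg was 18.7 (rank 30), the regional score headed RegAPScoreAvg was 8.52 (rank 13), and the caller's probability of enrichment was 1. Loops above the median span had a median value of 11.7 and those at or below it 6.83, so the loop was also set beside those of similar span. Of 65 other loops spanning 50.1 to 112.8 kb, 9 had a higher value, and their median was 12.9.

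hb, at 8690980 to 8697822 on 3R, lay inside a short loop of low value. The right anchor, at 8698001 to 8698400, was 179 bp beyond the right end of hb. The left anchor, at 8680801 to 8681200, was 9780 bp from the left end of hb and 767 bp from the right end of CG33325. Between the anchors lay hb, the small protein-coding gene CG44227 and 1 long non-coding RNA gene. The loop thus enclosed the whole gene, as the loop of knrl and kni enclosed kni. Lying wholly between the anchors of a loop was found for these 2 of the 7 genes and for 3.15% of all protein-coding genes.

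The span of the hb loop was 17.2 kb, and its value of 5.12 stood at rank 243 of 313. Its APScoreAvg of 3.69 stood at rank 277, its RegAPScoreAvg of 2.20 at rank 230, and its probability of enrichment was 0.994. Of 107 other loops spanning 11.5 to 25.8 kb, 76 had a higher value, and their median was 6.77. The hb loop was therefore in the lower part of the map also among loops of its own length.

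The Kr loop lay beside the gene and did not enclose it. Kr occupies 25226611 to 25231394 near the tip of 2R, within the span of the longer gene CG9380 (25183628 to 25255318), which ends the annotated protein-coding genes of that arm. The right anchor, at 25226001 to 25226400, was 211 bp from the left end of Kr. The left anchor, at 25214801 to 25215200, was 11.4 kb from that end and had no other protein-coding gene within 1 kb. Both anchors lay inside CG9380, and no whole gene lay between them.

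The Kr loop spanned 11.2 kb, and 5.11% of loops were shorter. Its value of 4.83 stood at rank 259, its APScoreAvg of 3.77 at rank 272, its RegAPScoreAvg of 2.08 at rank 244, and its probability of enrichment was 0.992. Of 57 other loops spanning 7.47 to 16.8 kb, 46 had a higher value, and their median was 6.48. The hb and Kr loops thus had similar values, both below the median of the map, and the knrl and kni loop stood far above them.

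**Figure D2:**
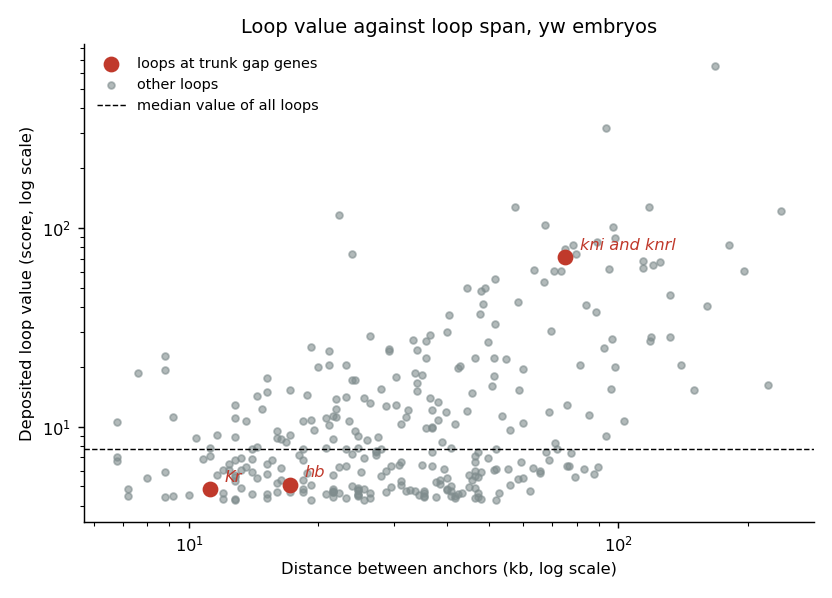
Deposited loop value (a score) against the distance between anchors in kb, both on log scales, for the 3 loops at trunk gap genes (large points) and the other loops of the map (small points), with the median value of all 313 loops dashed. The loop of kni and knrl lies at 75.2 kb and 71.4, and those of hb and Kr lie under the median of 7.75.

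Loops that joined related regulatory genes were also found among the gene lists used for comparison. Anchors within 1 kb of 2 different listed genes were found for 5 loops. The knrl and kni loop had the highest value of these. The share of all 313 loops that join 2 protein-coding genes in this way was not counted. The lists hold pairs of related genes and were chosen with earlier results of these data known. The count of 5 therefore has no background. The loop of the zinc-finger genes btd and Sp1 on X spanned 35.6 kb with a value of 22.2. The POU-domain genes nub and pdm2 on 2L had loops of 60 kb (value 19.5) and 68.8 kb (value 6.83). The forkhead genes slp1 and slp2 on 2L had a loop of 11.2 kb with a value of 7.84. None of the 5 spanned a boundary. eg, the other member of the knirps family, lies on the same arm as kni and knrl and had no anchor nearer than 210 kb.

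The genes without a loop differed in how far away the nearest one was. gt, at 2427113 to 2428967 on X, had its nearest loop to the left. This loop of 34.4 kb had both anchors inside Raf, the kinase gene of the Torso and EGF receptor pathways, and a value of 4.55, and 2 boundaries lay between it and gt. hkb, at 4345015 to 4346646 on 3R, had its nearest loop to the right, between anchors inside CG31522 and CG31523, with a span of 24.8 kb, a value of 7.85 and 1 boundary in between. tll, at 30852315 to 30854400 on 3R, was farther from any loop than 95.7% of protein-coding genes. Its nearest loop lay to the right behind 8 boundaries, with a value of 4.40. The left anchor of that loop overlapped rod, 102 bp from pygo, and the right anchor overlapped RpL6 and CycG.

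No boundary lay in any of the 7 genes or within 5 kb of one. Of all protein-coding genes, 19.2% had a boundary in the gene or within 1 kb and 31.5% within 5 kb. The distance to the nearest boundary was 7.02 kb for hkb, 14.6 kb for gt, 16.2 kb for kni, 21.4 kb for Kr, 31.0 kb for hb, 34.4 kb for tll and 90.9 kb for knrl. The median of 21.4 kb stood beside 14.2 kb over all protein-coding genes, and 6 of the 7 genes were above that value, hkb being the exception. Within 20 kb, a boundary was found for 3 of the 7 genes (hkb, gt and kni) and for 57.9% of all protein-coding genes. These distances lay mostly within the quartiles of all genes (2.80 and 40.4 kb), and only that of knrl was outside them.

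The anchors lay about as far from boundaries as those of other loops. The 6 anchors of the 3 loops were 15.2 to 90.4 kb from the nearest boundary, with the lowest value at the kni anchor and the highest at the knrl anchor. Of 614 different anchor intervals in the map, 35% had a boundary within 15 kb and 8.47% within 1 kb, and the median distance was 26.4 kb, with quartiles of 8.40 and 57.1 kb. All of the 6 anchors but that at knrl lay between these quartiles. None of the 3 loops spanned a boundary. Over the whole map 7.67% of loops did, so 0 of 3 does not set them apart.

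**Figure D3:**
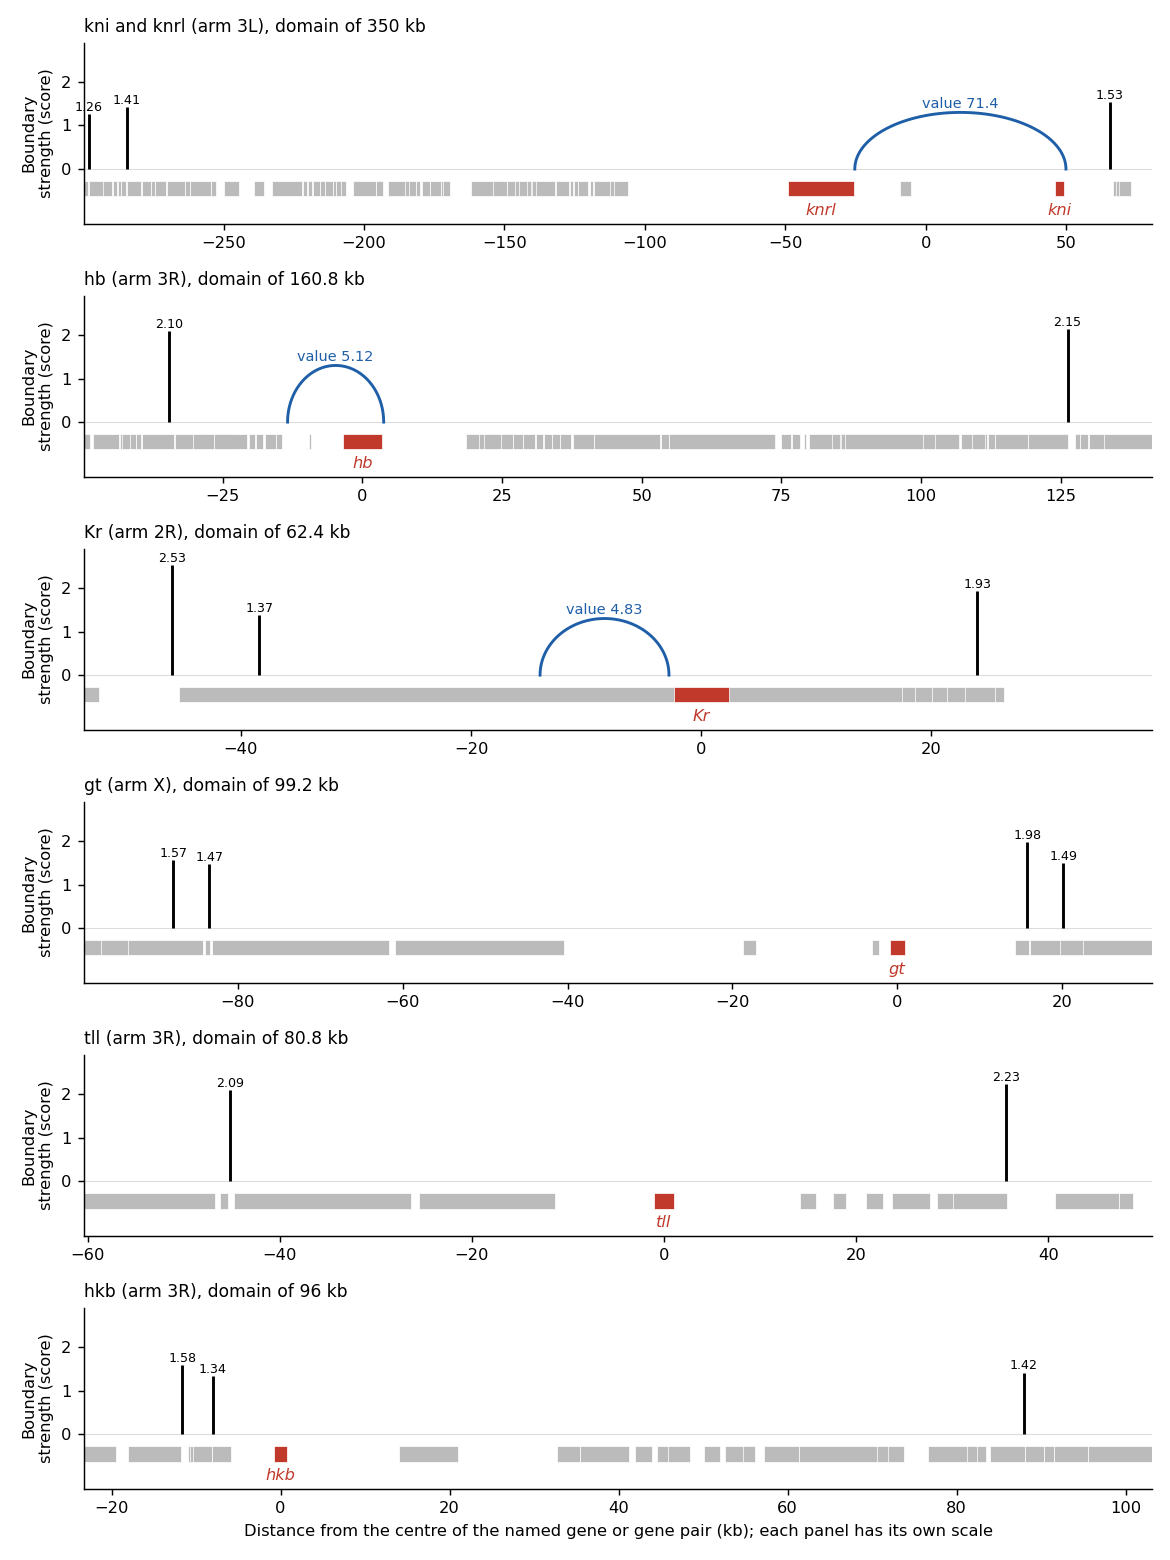
Map of each domain that holds a trunk gap gene, against distance in kb from the centre of the named gene or pair. Vertical lines are boundaries with their strength (a score), arcs are loops with their value, and blocks are protein-coding genes, with the trunk gap genes in red. The arc heights carry no scale. The loops of knrl with kni, of hb and of Kr lie wholly within their domains, and the domains of gt, tll and hkb hold no loop.

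The genes lay in domains of 62.4 to 350 kb, counted from the start of the boundary bin on the left to the start of that on the right. kni and knrl shared the largest, of 350 kb, which was larger than 98.2% of the 1895 domains. Counted per gene, it was larger than the domain of 91.7% of protein-coding genes. The domain of hb had 160.8 kb, that of gt 99.2 kb, that of hkb 96 kb, that of tll 80.8 kb and that of Kr 62.4 kb. All 6 domains were above the median of all domains, which was 36.8 kb. Large domains hold more genes, however, so a gene taken from the table usually lies in a large one. Counted per gene, the median was 99.2 kb over the 7 genes and 120 kb over all protein-coding genes, and 3 of the 7 were above 120 kb. This count runs between the nearest boundaries outside the gene, so it joins domains for a gene that holds a boundary, as no member does. For the domain holding the gene midpoint, the medians were 99.2 kb and 113.2 kb. Between the nearest boundaries outside the gene, 57.2% of protein-coding genes had more than 100 kb, as did kni, knrl and hb.

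The kni and knrl domain ran from a boundary of strength 1.41 at 20361601 to one of 1.53 at 20711601. Boundary strength is a score given by the authors, with a median of 1.64 over the 1930 boundaries and quartiles of 1.42 and 1.99. Both boundaries of this domain were thus below the median. The left one lay inside Toll-9, a receptor gene, 16 bp from Prim2, a DNA primase gene. The right one was intergenic, 838 bp from cmpy, a gene of BMP signalling at the neuromuscular junction. The domain held 41 other protein-coding genes, 40 of them to the left of knrl. kni stood near the right edge, 16.2 kb from the right boundary and 330.3 kb from the left one. The loop covered 21.5% of the domain.

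With boundaries of strength 1.5 or more, the domain of kni and knrl extended to 787.6 kb, and with those of at least the median strength to 991.6 kb. Its size therefore rests on weak boundaries.

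hb stood between 2 boundaries above the upper quartile of strength, and its domain kept its size of 160.8 kb under both of these limits. The left boundary, of strength 2.10 at 8659601, lay 31.0 kb away inside bel, an RNA helicase gene, and 903 bp from p. The right boundary, of strength 2.15 at 8820401, lay 122.6 kb away inside aqz. The domain was crowded, with 36 other protein-coding genes, and 29 lay within 50 kb of hb, against a median of 17 for all protein-coding genes. The nearest were CG44227 at 5.80 kb to the left and Cks85A, a gene of cell cycle control, at 15.1 kb to the right. The loop covered 10.7% of this domain.

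Kr had the smallest of these domains and an unequal pair of boundaries. The left boundary, of strength 1.37 at 25190401, lay 35.8 kb from Kr inside CG9380, and a stronger one of 2.53 lay 7.6 kb beyond it. The right boundary, of strength 1.93 at 25252801, lay 21.4 kb from Kr, inside both CG9380 and CG30428. It was followed after 24 kb by a boundary of 3.93, rank 31 of 1930, which lay at 25276801, beyond the last annotated protein-coding gene of the arm. Besides Kr, the domain held whole only CG30429 and Jhbp10. The loop covered 17.9% of it. Kr had 5 boundaries within 50 kb, the highest number of the 7 genes, against a median of 2 over all protein-coding genes.

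The domain of gt was bounded by 1.47 at 2344401 on the left and by 1.98 at 2443601 on the right. gt stood 14.6 kb from the right boundary and 82.3 kb from the left one. Both lay at genes of the mitochondrial ribosome. The left one overlapped mRpL14, 149 bp from CG2841 and 531 bp from Raf. The right one overlapped tko, 167 bp from boi, a gene of Hedgehog reception. Each was 1 of a close pair, with a boundary of 1.57 lying 4.4 kb beyond the left one and one of 1.49 lying 4.4 kb beyond the right one. The 4 other protein-coding genes of the domain, CG2841, PsGEF, CG12496 and CG32797, lay to the left of gt. At the median strength, the left limit moved outward and the domain had 173.2 kb.

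tll was near the middle of its domain and, like hb, had strong boundaries on both sides. The left boundary, of strength 2.09 at 30808001, lay 43.9 kb away, 23 bp from dj-1beta, a gene of oxidative stress defence, and 217 bp from cindr. The right boundary, of strength 2.23 at 30888801, lay 34.4 kb away inside Sap-r, a saposin-related gene. The domain held 7 other protein-coding genes. The nearest to tll were CG15544 at 10.3 kb to the left and the cuticle gene Cpr100A at 13.1 kb to the right. Its size of 80.8 kb was the same under both limits on strength.

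hkb stood closest to a boundary, and its boundaries were the weakest pair. The left one, of strength 1.34 at 4337601, lay 7.02 kb away and overlapped Skp2, an F-box gene, and CG1103. A boundary of 1.58 followed 3.6 kb beyond it. The right one, of strength 1.42 at 4433601, lay 87.0 kb away and overlapped eIF3a, a translation initiation factor gene, and CG1074. The domain held 14 other protein-coding genes, all to the right of hkb, the nearest of which was CG1090 at 13.2 kb. It had 145.2 kb with boundaries of strength 1.5 or more and 305.2 kb with those of at least the median.

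**Figure D4:**
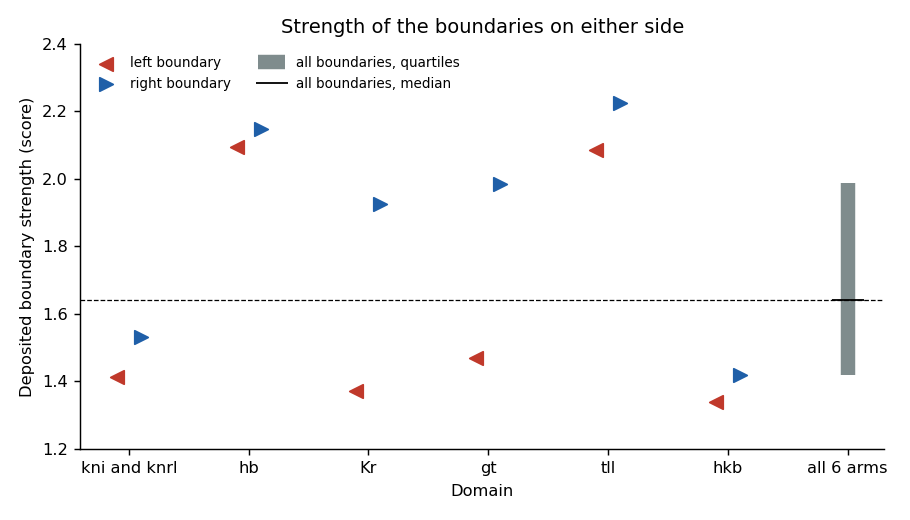
Deposited strength (a score, axis starting at 1.2) of the left and right boundary of each domain, with the quartiles (bar) and median (dash, continued as a dashed line) of the 1930 boundaries on the 6 arms. hb and tll have both boundaries above the median of 1.64, kni with knrl and hkb have both below it, and Kr and gt have 1 on each side.

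Across the 12 flanking boundaries the strength ran from 1.34 to 2.23 with a median of 1.73, beside 1.64 over all boundaries. Of the 12, 6 were above the median of all boundaries and 4 were above the upper quartile, namely both of hb and both of tll. None reached the strength of 2.53 or 3.93 found just outside the Kr domain. An end of a protein-coding gene lay within 1 kb of 11 of the 12, and of 72.9% of all boundaries. The exception was the left boundary of Kr, inside CG9380 and 6773 bp from the nearest end. Loops were listed between strong and between weak boundaries. hb had a loop and tll had none between boundaries of similar strength, and kni with knrl had a loop and hkb had none between boundaries below the median. A relation between boundary strength and loops was not tested.

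The 7 genes had wide gaps to their neighbours when both sides were added, a measure that the choice of loops and boundaries did not use. Adding the gaps to the next protein-coding gene on each side that does not overlap, the free space was 73.3 kb at knrl, 68.9 kb at kni, 65.0 kb at Kr, 23.4 kb at tll, 20.9 kb at hb, 18.3 kb at hkb and 14.6 kb at gt. All 7 were above the upper quartile of protein-coding genes, which was 8.85 kb. For Kr the sum passes over CG9380, whose span covers Kr. The gap was small on 1 side of gt, where CG32797 lay 1.26 kb away. Of the genes at or above this quartile, 18.9% had a loop anchor within 20 kb. Gene number over a wider window varied. Within 50 kb, there were from 1 other protein-coding gene at knrl to 17 at hkb and 29 at hb, beside a median of 17 over all protein-coding genes and quartiles of 12 and 22. Gene lengths ran from 1.63 kb for hkb to 6.84 kb for hb, and knrl had 23.5 kb. Their median was 3.05 kb, beside 2.16 kb over all protein-coding genes, and 4 of the 7 were above the median of all genes. The part of gene spacing in the loops was not tested.

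Other genes of the segmentation network showed mixed arrangements. Of 13 maternal and terminal regulators, 4 had an anchor within 20 kb, led by cad (loop value 8.89) and bcd (6.95), followed by osk (5.52) and pum (4.73), while nanos, tor and tsl were among those without. A boundary within 1 kb was found for none of the 7 trunk gap genes, 8 of these 13 regulators, 1 of 9 pair-rule genes, 1 of 6 head gap genes, 0 of 9 relatives, 0 of 4 later neuroblast factors and 19.2% of all protein-coding genes. Of 9 pair-rule genes, the targets of the gap proteins, 6 had an anchor within 20 kb, among them odd (53.4), ftz (49.7), opa (9.08), slp1 and slp2 (7.84 each), and eve, hry and prd had none. The ftz value belongs to the loop that passes over the gene, with an anchor 15.1 kb away. Of 6 head gap genes, 5 did, namely oc (orthodenticle, 55.3), btd (22.2), ems (17.2), slp1 and slp2, and cnc did not. Some genes stand in more than 1 of these lists.

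Relatives of the trunk gap genes were likewise divided. Of 9 related or co-acting genes, 6 had an anchor within 20 kb, among them btd and Sp1 (22.2 each), Kr-h1 (14.3), fkh (10.8) and vri (9.47). The nuclear receptor genes eg, dsf and Hr51 had none. Of 4 later factors of the neuroblast series that begins with hb and Kr, nub and pdm2 (19.5 each) had an anchor and cas and grh had none. The differences between these lists and the trunk gap genes were not tested, and the trunk gap genes' share of 57.1% stood within the range of the other lists, 30.8% to 83.3%.

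**Figure D5:**
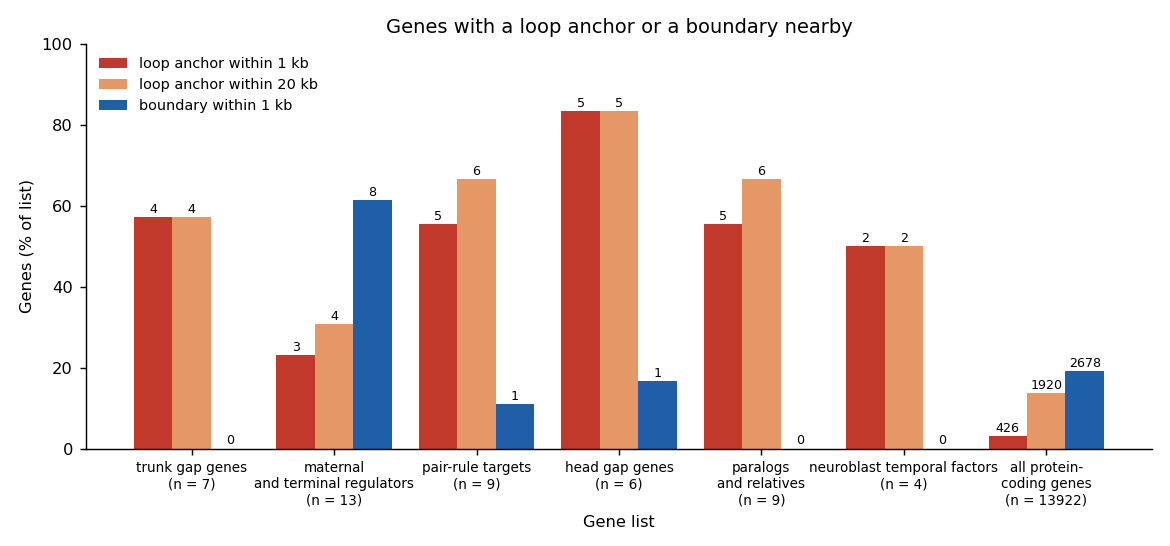
Share of each gene list (percent of its genes, with the number of genes above the bar) with a loop anchor within 1 kb, a loop anchor within 20 kb and a boundary within 1 kb of the gene body. Of the 7 trunk gap genes, 4 have an anchor at either distance. A boundary within 1 kb is found for 0 of them, for 0 or 1 gene of each other list but the regulators (8 of 13), and for 19.2% of all protein-coding genes.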

How the data were processed

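The authors deposited boundaries, loops and loop anchors of the yw line with no column per sample. The submitters' processing notes name BWA 0.7.17 and the dm6 build. Loops carry the columns of the SIP caller, per the file headers. The loop and anchor lists are named as filtered, and the sources used here do not give the filter. The sources used here do not give the matrix normalization or say whether both yw samples were pooled. Boundary strength and the loop scores are scores deposited by the authors on an unstated scale. The track line of the boundary list names 10 kb and a minimum of 1.25, per the file headers. The probability of enrichment is a fraction deposited per loop.

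Of 2034 deposited boundaries, 14 repeats were removed, and those on Y were left out. Anchor starts were raised by 1 base. Distances run from the gene span to the nearest edge of a feature. Touching boundary bins were not counted as domains. Genes came from the RefSeq table of Release 6 (the dm6 assembly), which gives no strand or exons. Python 3.11.15, pandas 2.3.3 and numpy 2.4.6 were used, and interval functions were tested on simulated data.

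Members and gene lists were chosen with earlier results of these data known. Named are the members, genes at their anchors and boundaries or nearest to them, genes whole in a domain of 5 or fewer others, and up to 5 genes with and 3 without an anchor per list. oc was matched by its synonym otd. No promoter or protein sequence was used here, so the planned motif search and protein comparison were not run. Alternatives changed the window, the loops, the boundaries and the set of genes.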

Additional observations from a re-analysis of the deposited data

How the results depend on the processing

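When loops below the median value were left out, 2 members and 1 loop remained within 20 kb, and the share of all protein-coding genes was 5.65%. Without kni and knrl, 2 members had an anchor. Windows of 1, 5, 10 and 50 kb left the member count at 4 and the loop count at 3, and gave 3.06%, 5.39%, 8.32% and 25.9% of all protein-coding genes. Among genes at or above the upper quartile of spacing the share was 18.9%. The members' median domain size ran from 96 to 173.2 kb over all alternatives. That of all protein-coding genes was 260 kb with boundaries of at least the median strength, 189.2 kb with those of at least 1.5, and 113.2 kb for the domain holding the gene midpoint. The count of 0 members with a boundary within 1 kb was recomputed only with fewer boundaries, which cannot raise it. Counting boundaries that overlap the outer extent of a member loop also gave 0 loops. No paired analysis was possible because the features carry no value per sample. The alternative on promoter motifs was not run, since no promoter sequence was used here. Depth is unknown, and the cut on boundary strength limits every statement that a boundary is missing. The unstated filter on loops likewise limits every statement that a loop is missing.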

Other observations

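Beyond the nearest features, 5 further loops had an anchor within 200 kb of a member, a distance chosen after the values were seen. A loop of rank 76 by value, with a span of 51.2 kb, lay 161.8 kb to the left of hb, between CG45263 and CG11741, with 1 boundary between it and hb. A loop of value 5.71 lay 95.8 kb to the right of gt, at the perlecan gene trol, behind 2 boundaries. To the left of hkb, 3 loops ended close together, 172 to 175 kb away and behind 5 boundaries. Their values were 12.9, 6.11 and 11.5, and 2 of them began inside CG42402. The loop of value 11.5 spanned 85.6 kb and 3 boundaries.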
